A study of Sus scrofa with 16 samples.

Results

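Plastic against gel in female valve cells is described here: 8 of the 16 RNA libraries of a study on porcine aortic valve interstitial cells (VICs), the fibroblast-like cells that populate the valve leaflet. The 8 were chosen as all libraries labelled female. Of these, 4 came from VICs on a poly(ethylene glycol)-norbornene hydrogel with an elastic modulus of about 5.8 kPa, which the submitters regard as quiescent fibroblasts, and 4 from VICs on tissue culture plastic, which they regard as myofibroblasts. Both surfaces shared the medium with 1% fetal bovine serum and antibiotics, the 48 hours of culture, the leaflet source and the donor age of 5 to 6 months. The labels name no genetic change and no agent given on 1 surface only. The other 8 libraries, 4 male gel and 4 male plastic, entered the estimate of the spread and 1 comparison at the end. The labels call the 4 of each group biological replicates, without saying how many animals gave cells to each, and give no stiffness for the plastic.

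VICs on a soft surface tend to stay spindle-shaped fibroblasts, while a stiff surface lets them build actin stress fibres and focal adhesions, the state called the myofibroblast. The best known route runs through actin itself: when monomeric actin is used up in fibres, the coactivators MRTF-A and MRTF-B enter the nucleus and switch on genes of the serum response factor SRF, among them smooth muscle actin. In parallel, tension brings the coactivators YAP and TAZ to the TEAD factors, and latent TGF-beta is pulled out of its matrix complex by integrins. Myofibroblasts lay down and contract matrix in valve repair and in stenotic valves.

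The labelled sex and cell type were checked first. EIF1AY, the Y-linked translation factor gene, had 0 counts in all 8 female libraries and 167 to 472 in each male library. All 14 fibroblast markers were measured in all 8 libraries, with summed levels of 41683 to 49203 CPM (counts scaled to the effective library size) on gel and 45285 to 52947 on plastic. Of 22 leukocyte markers, 7 had no count in any female library, PTPRC (CD45) and the T cell genes CD3D, CD3E and CD4 among them. The 13 epithelial and erythroid markers in the table summed to at most 0.40 CPM. Of 18 cardiac and skeletal muscle markers in the table, 10 had 0 counts, including the muscle master regulators MYOD1 and MYOG and the troponin TNNT2. RGS5, a defining pericyte gene, had at most 4 counts, but other pericyte and smooth muscle markers were present. The 12 of that list in the table summed to 638 to 801 CPM on gel and 1287 to 2252 on plastic. Endothelial markers were present, several at low levels: 21 of 22 were tested, and their sum ran from 355 to 579.7 CPM on gel and from 389.5 to 968 on plastic. ENG alone read 152 to 205 CPM on gel and 142 to 250 on plastic. In contrast, VWF read at most 4.17 CPM in any female library, CLDN5 2.53, KDR 2.22 and LYVE1 0.841.

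Each female library held 22902502 to 27436151 counts. Of 14530 genes tested, 3476 differed between the surfaces at an adjusted p under 0.05 (23.9%), 1839 higher on plastic (12.7%) and 1637 lower (11.3%). These percentages are the background for every count of genes below, and the median log2 change of all tested genes was -0.04. Genes were tested by edgeR's quasi-likelihood method with Benjamini-Hochberg adjustment, and log2 changes are plastic minus gel. The standard errors (SE) are approximate: the size of the log2 change divided by the square root of the F statistic of that test. For genes near 0 on 1 surface they need not equal the error of the log2 change. Levels written with ± are means and SDs over the 4 libraries of a surface. The change was at least 2-fold for 628 genes higher on plastic and 568 lower, at least 8-fold for 53 and 62, and under 1.5-fold for 1263. The 4 plastic and 4 gel libraries did not overlap in CPM for 4022 genes (27.7%). With same-numbered libraries treated as pairs, 4011 genes were called (27.6%), and 3331 of the 3476 kept their call and direction. Leaving out 1 female library at a time gave between 2780 (without female gel 3) and 3260 calls (without female plastic 1), and 2222 genes were called in all 8 of these fits.

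**Figure D1:**
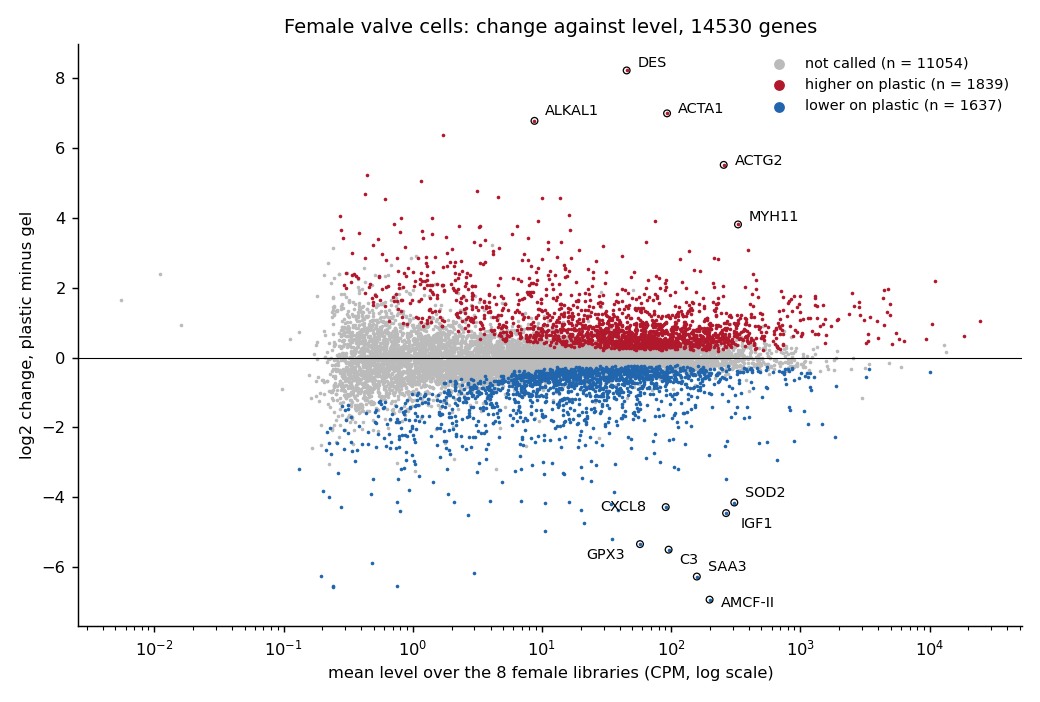
Change against level for the 14530 tested genes in female cells. The horizontal axis is the mean CPM over the 8 female libraries on a log scale, the vertical axis the log2 change, plastic minus gel, and coloured points are the 1839 higher and 1637 lower genes at an adjusted p under 0.05. The circled genes are examples from the text, from DES at 8.21 to AMCF-II at -6.92.

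The 15 largest rises and 15 largest falls were taken among called genes with at least 5 CPM in the higher group, no overlap and no LOC symbol, and the largest of these rises was that of DES. DES encodes desmin, the intermediate filament of muscle cells (chromosome 15, 121428539 to 121435426, Sscrofa11.1), and read 0.288, 0.354, 0.441 and 0.109 CPM in gel cultures 1 to 4 and 38.8, 160.2, 114 and 48.5 CPM in plastic cultures 1 to 4. Its log2 change was 8.21, SE 0.65, adjusted p = 2.66e-07. The actin of skeletal muscle, ACTA1 (chromosome 14, 60412651 to 60415687), read 1.15, 1.3, 2.34 and 0.978 CPM on gel and 58.6, 348, 307 and 24.2 on plastic, a change of 6.98, SE 0.78, adjusted p = 9.25e-06. For these 2 genes every plastic library lay far above every gel library, but the plastic level itself varied several-fold between cultures. ACTG2, the actin of visceral smooth muscle (chromosome 3, 69097366 to 69121542), read 5.19, 16.2, 14.8 and 7.65 CPM on gel against 173, 743, 671 and 412 on plastic (log2 5.51, SE 0.48, adjusted p = 8.37e-07). MYH11, the smooth muscle myosin heavy chain (chromosome 3, 7002667 to 7143093), rose from 43.9 ± 27.5 to 615 ± 333 CPM (log2 3.81, SE 0.52, adjusted p = 6.08e-05). The small heat shock protein HSPB7, known from heart and skeletal muscle, rose from 9.35 ± 3.9 to 139 ± 40.0 CPM (log2 3.9, SE 0.35, adjusted p = 1.09e-06).

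The 15 largest rises also included genes that are not part of muscle filaments. ALKAL1, a ligand of the receptor kinases ALK and LTK, was near the detection limit on gel (0, 0.236, 0.34 and 0.0362 CPM) and reached 9.1, 18.4, 29.8 and 12.1 CPM on plastic (log2 6.77, SE 0.67, adjusted p = 2.99e-06). The BMP-family ligand GDF7 rose by 4.76 (SE 0.76), the endocytic membrane-bending protein PACSIN1 by 4.61 (SE 0.50), the Ras-induced membrane protein TMEM158 by 4.57 (SE 0.43) and the X-linked scaffold FRMPD3 by 4.56 (SE 0.51). The GABA-B receptor subunit GABBR2 changed by 3.89 (SE 0.48), the membrane-anchored metalloproteinase MMP17 by 3.75 (SE 0.37), the guidance ligand SLIT3 by 3.64 (SE 0.25) and the Ras-like estrogen-regulated gene RERG by 3.54 (SE 0.76). The gel mean of each of these was under 3 CPM, so the size of each fold rests on few gel counts. Without female gel 3 the log2 change of ALKAL1 was 7.55, and without female plastic 1 that of GDF7 was 3.98. The absence of overlap between surfaces is a condition of the rule that named the 15 largest rises and 15 largest falls, not a finding.

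The 15 largest falls included chemokine, acute-phase and complement genes beside others. AMCF-II, a porcine chemokine that attracts neutrophils and the largest fall (chromosome 8, 70008225 to 70010360), read 233, 409, 408 and 524 CPM in gel cultures 1 to 4 and 3.42, 3.69, 2.68 and 3.16 in plastic cultures 1 to 4, a change of -6.92, SE 0.39, adjusted p = 6.34e-09. The acute-phase protein SAA3 (chromosome 2, 41021349 to 41025950) fell from 312 ± 114 to 4.07 ± 2.16 CPM (log2 -6.26, SE 0.47, adjusted p = 1.53e-07), although reads of the close SAA paralogs may have been shared. Complement C3 (chromosome 2, 72431470 to 72471622), the hub of the complement cascade, read 51.4, 311, 245 and 141 CPM on gel and 3.82, 4.07, 2.42 and 6.24 on plastic (log2 -5.49, SE 0.48, adjusted p = 8.70e-07). Gel culture 1 was the lowest of the gel libraries for C3 and still lay far above every plastic library. IGF1, the insulin-like growth factor that fibroblasts secrete (chromosome 5, 81762027 to 81909253), fell from 509 ± 258 to 23.3 ± 10.1 CPM (log2 -4.45, SE 0.44, adjusted p = 3.01e-06). The extracellular glutathione peroxidase GPX3 fell by 5.34 on the log2 scale (SE 0.44), RND1, which loosens stress fibres, by 4.96 (SE 0.27), and the complement component C7 by 4.36 (SE 0.97). The chemokine CCL20 (log2 -4.51, SE 0.58), the protease inhibitor PI15 (log2 -4.73, SE 0.99) and the lysosomal protease CTSL (log2 -4.19, SE 0.81) were also among the 15 largest falls. The falls of 3 of these genes depended on single libraries for their size: PI15 was at -3.62 without female gel 4 and -5.73 without female plastic 1, CTSL at -3.31 without female gel 4 and C7 at -5.03 without female plastic 2.

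**Figure D2:**
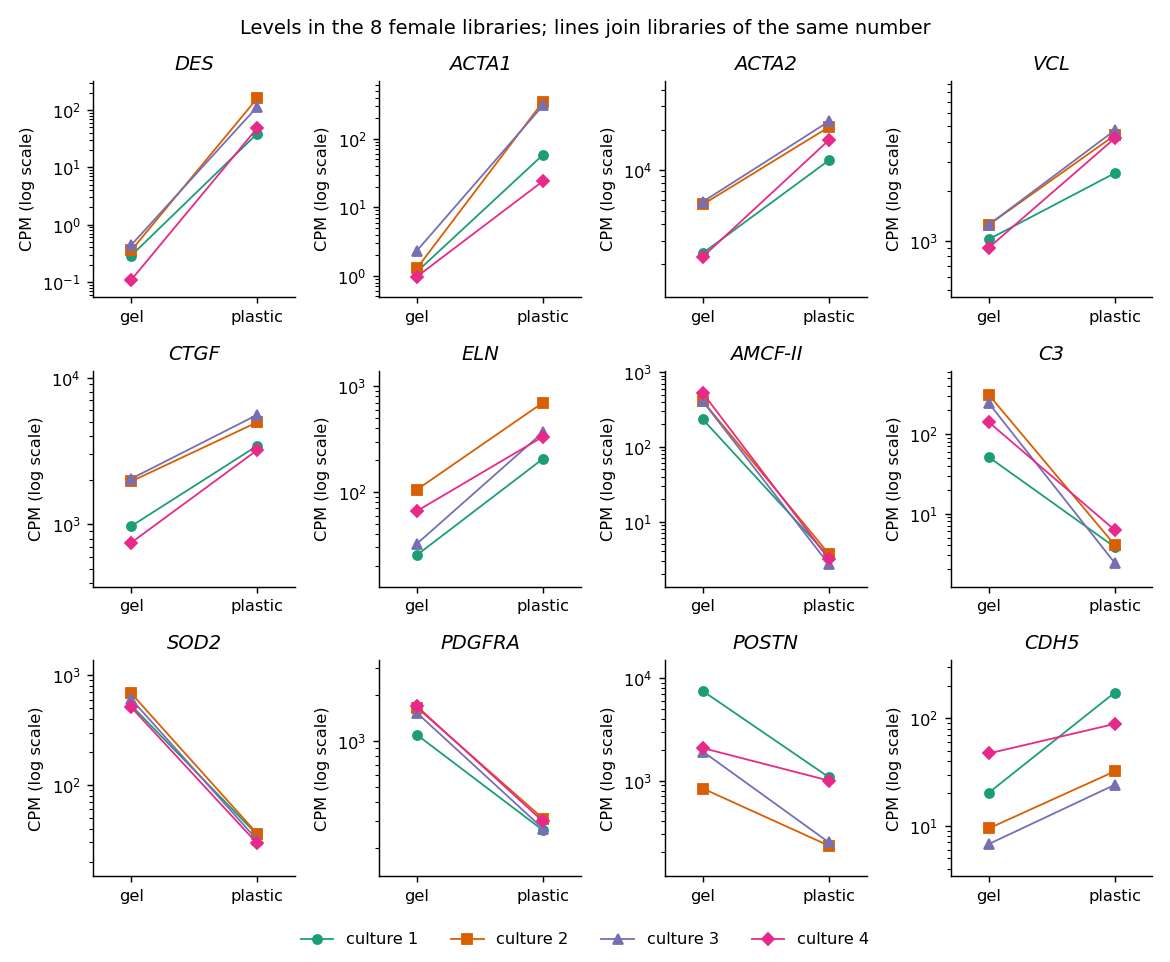
CPM of 12 genes in each female library, on a log scale, with gel on the left and plastic on the right of each panel. Lines join libraries of the same number. The 4 lines run up from DES to ELN and in CDH5 and down in the other 5 genes, and for ACTA1 the plastic values range from 24.2 to 348 CPM.

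Contractile and stress fibre genes rose almost without exception: 24 of 25 tested were higher, 0 lower, with a median log2 change of 1.36 against -0.04 over all genes. ACTA2, smooth muscle actin and the usual myofibroblast marker, read 2418, 5571, 5837 and 2271 CPM in gel cultures 1 to 4 and 11870.5, 21001, 23139.8 and 16783 in plastic cultures 1 to 4. Gel culture 4 was the lowest and rose most, so that the same-number changes ran from 1.91 to 2.89. The non-muscle myosin MYH9 rose from 2670.1 ± 440.4 to 6641 ± 734 CPM (log2 1.31, SE 0.13, adjusted p = 3.40e-06) and the tropomyosin TPM1, which lines actin filaments, from 1823 ± 580.3 to 7022 ± 835 CPM (log2 1.95, SE 0.23, adjusted p = 1.41e-05). CNN1 (calponin) changed by 2.23 (SE 0.29) and TAGLN (transgelin) by 1.21 (SE 0.25). Together the 25 genes held 4.07% ± 0.818 of all counts on gel and 8.54% ± 1.27 on plastic (mean ± SD, n = 4), and the 2 ranges did not overlap. The actins are close paralogs, and a read that fits several of them may have been counted for any of these.

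Most measured sarcomere genes were higher as well. Of 22 muscle Z-disc and sarcomere genes 13 passed the filter on low counts, and 12 of these 13 were higher on plastic. Genes near 0 on gel passed the filter through their plastic libraries, so their direction was partly fixed. CRYAB, a chaperone of desmin, rose from 83.7 ± 12.3 to 271 ± 87.8 CPM (log2 1.7, SE 0.18, adjusted p = 6.53e-06), and ANKRD1, a titin-binding and YAP-responsive protein, from 11.8 ± 9.24 to 116 ± 63.7 CPM (log2 3.3, SE 0.67, adjusted p = 0.00186, with a log2 change of 3.97 without female gel 4). CASQ2, the calcium-binding protein of the muscle calcium store, changed by 3.76 (SE 0.58) but with same-number changes from 1.2 in culture 1 to 5.03 in culture 4. Beside this, the sum of the 18 cardiac and skeletal muscle markers was 17 to 42.8 CPM on gel and 109 to 197 on plastic. TTN (titin) rose from 25.2 ± 10.6 to 128 ± 44.2 CPM and made up most of that sum, while 10 of the 18 were at 0. Of the 4 tested, TTN and the calcium release channel RYR2 (log2 2.42, SE 0.62) were higher and 0 lower. Of 11 tested pericyte and smooth muscle markers, 7 were higher and 2 lower, led by MCAM (log2 1.46, SE 0.13), MYH11 and the proteoglycan CSPG4 (log2 1.17, SE 0.18). The potassium channel subunits ABCC9 (log2 -1.88, SE 0.41) and KCNJ8 (log2 -2.23, SE 0.57) were the 2 that fell. In bulk RNA, more cells of a type and more RNA per cell cannot be told apart.

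Most focal adhesion genes rose, and so did 8 of 16 integrin genes. Of 26 focal adhesion and LIM protein genes, 18 were higher and 1 lower, the lower count being 0 without any single female library other than gel 4 or plastic 1 (median 0.78). VCL, vinculin, which ties integrin complexes to actin, read 1018, 1247, 1248 and 904 CPM on gel and 2573, 4384, 4693 and 4195 on plastic (log2 1.84, SE 0.17, adjusted p = 1.36e-06), with no overlap. The tensin TNS1 (log2 1.52, SE 0.15), which anchors actin at fibrillar adhesions, and the zyxin relative LPP (log2 1.5, SE 0.18) rose too. Among 16 matrix-binding integrin genes, 8 were higher and 0 lower, and with the pairs as a block 10 higher and 3 lower (1 lower without female plastic 1). The shared beta chain ITGB1 rose from 2515 ± 190.3 to 7286 ± 1169.9 CPM (log2 1.53, SE 0.15, adjusted p = 2.74e-06), the collagen-binding ITGA1 from 452 ± 115 to 1527 ± 117 CPM (log2 1.76, SE 0.16, adjusted p = 1.24e-06) and the laminin-binding, muscle-typical ITGA7 from 9.74 ± 3.36 to 73.2 ± 43 CPM (log2 2.91, SE 0.40, adjusted p = 6.25e-05). Cadherins and other adhesion molecules split, with 8 of 22 higher and 4 lower. N-cadherin, CDH2, rose from 77.9 ± 15.8 to 341 ± 66.6 CPM (log2 2.13, SE 0.17) and the protocadherin PCDH18 by 1.88 (SE 0.31), while the leukocyte ligands VCAM1 (log2 -3.47, SE 0.22) and ICAM1 (log2 -0.98, SE 0.13) fell.

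The regulators upstream of these genes showed smaller changes than the contractile list, whose median was 1.36. Of 23 genes for SRF, its cofactors, YAP, TEAD factors, kinases and mechanosensitive channels, 12 were higher and 1 lower, or 3 lower with the pairs as a block and 2 without female gel 2 or female plastic 1 (median 0.51). MKL1, which encodes MRTF-A, rose from 68.6 ± 8.5 to 158 ± 32.9 CPM (log2 1.2, SE 0.16, adjusted p = 4.43e-05), the exchange factor ARHGEF2 by 0.86 (SE 0.12) and the kinase ROCK2 by 0.91 (SE 0.15). SRF itself rose from 71.8 ± 10.1 to 107 ± 15.4 CPM (log2 0.57, SE 0.14, adjusted p = 0.00773). YAP1 was not called (log2 0.32, SE 0.13, adjusted p = 0.0889, but 0.0158 without female plastic 1), and TEAD2 was the gene of the list called lower (log2 -0.72, SE 0.12). Of 20 tested YAP/TAZ target genes, 11 were higher and 1 lower, or 12 and 3 with the pairs as a block. The lower count was 0 without female gel 1 or female plastic 2 or 3 and 2 without female plastic 1. CTGF (also CCN2), a matricellular growth regulator, read 973, 1966, 2050.2 and 751 CPM on gel and 3434, 4973, 5587 and 3213 on plastic (log2 1.58, SE 0.32, adjusted p = 0.00173), and CYR61 (CCN1) changed by 0.76, SE 0.17, adjusted p = 0.00348. TGFB2 (log2 2.04, SE 0.19) and CRIM1 (log2 1.34, SE 0.18) had the smallest adjusted p of the list. The nuclear lamina and LINC complex list, which links the cytoskeleton to the nucleus, had 4 of 13 higher and 1 lower, all by less than 2-fold. The lower count was 2 with the pairs as a block or without female gel 2 and 0 without female gel 1 or 4 or female plastic 2 or 3. The higher count of that list fell to 1 without female gel 4 and to 2 without female gel 2, female plastic 3 or female plastic 4.

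Matrix genes did not move one way. Of 9 tested fibrillar collagen genes, 4 were higher and 1 lower (2 lower with the pairs as a block or without female plastic 4), COL5A1 (log2 1.06, SE 0.15) and COL5A2 (log2 0.71, SE 0.11) among the higher. Among the major chains, COL1A1 read 8992, 14307, 10791 and 10991 CPM on gel and 14358, 16925, 14286 and 12595 on plastic, with overlap and no call (log2 0.37, SE 0.16, adjusted p = 0.113), although its adjusted p was 0.0375 without female gel 2 and 0.0263 in the paired fit of the 8 female libraries alone. COL1A2 was not called either (log2 0.16, SE 0.091, adjusted p = 0.223), while COL3A1 was (log2 0.53, SE 0.14, adjusted p = 0.0103). In the list of other collagens 5 of 18 were higher and 6 lower, 3 without female gel 2 or female plastic 1. The basement membrane chain COL4A1 rose from 1380.4 ± 229.9 to 3865 ± 569.6 CPM (log2 1.49, SE 0.13, adjusted p = 1.24e-06), COL12A1, which decorates fibrils, by 1.15 (SE 0.14) and COL15A1 by 1.07 (SE 0.14). COL18A1, the source of endostatin, changed by -0.85 (SE 0.20) and COL16A1 by -0.43 (SE 0.094). Elastic fibre genes had 6 of 17 higher and 2 lower (1 lower without any single female library other than plastic 2). ELN, elastin, read 25.5, 106, 32.6 and 66.3 CPM on gel and 206, 700.5, 367 and 334 on plastic (log2 2.81, SE 0.46, adjusted p = 2.85e-04), and the microfibril protein FBN1 rose from 3061 ± 454 to 5796 ± 665 CPM (log2 0.92, SE 0.14), while FBLN1 fell from 699.5 ± 92.5 to 318 ± 56.1 CPM (log2 -1.14, SE 0.15).

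Small leucine-rich proteoglycans went both ways. FMOD (log2 1.07, SE 0.14, adjusted p = 3.75e-05), PRELP (log2 1.13, SE 0.17, adjusted p = 1.40e-04) and ASPN (log2 1.17, SE 0.30), which bind collagen fibrils, rose. DCN, decorin, read 529, 419.5, 524 and 396 CPM on gel and 127, 152, 175 and 247 on plastic (log2 -1.41, SE 0.21, adjusted p = 1.53e-04), and LUM, lumican, fell from 1187 ± 367 to 444 ± 238 CPM (log2 -1.42, SE 0.28, adjusted p = 0.0014). In all 4 of 13 tested proteoglycans of this list were higher and 5 lower, 3 lower without female gel 1, 2 or 3 or female plastic 2 or 3. The versican and hyaluronan list had 0 of 13 higher (1 with the pairs as a block or without female gel 1 or female plastic 2) and 6 lower, with the large proteoglycan VCAN down from 1231 ± 392 to 433 ± 116 CPM (log2 -1.51, SE 0.24, adjusted p = 2.40e-04), the hyaluronan synthase HAS3 at -2.48 (SE 0.47) and the link protein HAPLN1 at -1.28 (SE 0.27). Enzymes that process and crosslink collagen had 4 of 21 higher and 7 lower, 4 lower without female gel 4 or female plastic 2, 3 or 4. The lysyl oxidase LOX rose from 248 ± 26.4 to 388 ± 32.3 CPM (log2 0.65, SE 0.11, adjusted p = 3.74e-04) and the lysyl hydroxylase PLOD2 by 0.92 (SE 0.14), while the procollagen protease enhancer PCOLCE fell from 146 ± 27.6 to 71.4 ± 18.4 CPM (log2 -1.03, SE 0.21).

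Of 22 matricellular genes 9 were higher and 5 lower, and their share of all counts went from 4.52% ± 0.459 on gel to 6.44% ± 0.0294 on plastic (mean ± SD, n = 4). FN1, fibronectin, rose from 14643 ± 1143 to 22362 ± 1645 CPM (log2 0.61, SE 0.095, adjusted p = 1.88e-04), THBS1, the thrombospondin that can activate TGF-beta, from 15864 ± 4333 to 32887 ± 2544 CPM (log2 1.05, SE 0.17, adjusted p = 2.43e-04), and TNC, tenascin-C, from 407 ± 121 to 1290.4 ± 191 CPM (log2 1.66, SE 0.26, adjusted p = 1.96e-04). POSTN, periostin, went the other way and varied widely between cultures: 7524, 837, 1925 and 2082 CPM on gel against 1081, 231, 249 and 1001 on plastic, with overlap (log2 -2.27, SE 0.63, adjusted p = 0.0144). Its log2 change was -1.34 and its call was lost without female gel 1 (adjusted p up to 0.0853), and the 5 lower genes of the list became 3 without female gel 1, female plastic 1 or female plastic 4. The calcium-binding matrix proteins SMOC1 (log2 -3.06, SE 0.34) and MATN2 (log2 -1.93, SE 0.28) fell without overlap. Metalloproteinases and their inhibitors had 2 of 14 higher and 4 lower. MMP2, the gelatinase, fell from 1533 ± 307 to 851 ± 131 CPM (log2 -0.85, SE 0.16, adjusted p = 0.00104), MMP19 by 1.25 (SE 0.14) and the membrane type MMP14 by 0.43 (SE 0.10) on the log2 scale. MMP1, the collagenase, was at 19.1, 5.28, 6.04 and 24 CPM on gel and 8.17, 1.22, 2.11 and 4.94 on plastic and was not called (adjusted p = 0.0985, but 9.16e-04 with the pairs as a block).

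TGF-beta genes that were called were mostly higher, whereas 3 of the 4 ID genes were lower. Of 21 tested genes for TGF-beta ligands, receptors, latency proteins and response genes, 8 were higher and 2 lower (1 lower without female gel 1 or female plastic 3). TGFB3 read 129, 174, 148 and 94.4 CPM on gel and 511, 833, 897 and 636 on plastic (log2 2.4, SE 0.24, adjusted p = 3.66e-06), while TGFB1 was not called (log2 0.08, SE 0.29, adjusted p = 0.879). The activin chain INHBA rose from 217 ± 47 to 725 ± 120.3 CPM (log2 1.74, SE 0.16, adjusted p = 1.53e-06). The coreceptor TGFBR3 fell from 17.6 ± 6.21 to 6.37 ± 0.556 CPM (log2 -1.47, SE 0.30). In the BMP list 8 of 24 were higher and 6 lower. ID1, an inhibitor of differentiation factors and a direct BMP target, read 69.5, 58, 61.3 and 81.2 CPM on gel and 5.33, 4.58, 5.45 and 3.25 on plastic (log2 -3.86, SE 0.27, adjusted p = 8.22e-08), with ID2 (log2 -1.56, SE 0.16), ID3 (log2 -1.02, SE 0.24) and the inhibitory SMAD6 (log2 -0.91, SE 0.19) lower too. ID4 was the exception and rose from 44 ± 8.41 to 153 ± 63.9 CPM (log2 1.8, SE 0.30). Among the ligands BMP2 fell from 23.1 ± 13.5 to 6.4 ± 1.99 CPM (log2 -1.85, SE 0.41, adjusted p = 0.00353) and BMP4 rose from 56.3 ± 12.1 to 104 ± 17.5 CPM (log2 0.88, SE 0.17, adjusted p = 0.00145), and the BMP antagonist GREM1 rose from 0.219 ± 0.179 to 2.58 ± 1.93 CPM (log2 3.54, SE 0.70, or 2.87 without female plastic 4).

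All called chemokine genes were lower. Of 22 chemokine genes in the table, 11 passed the filter on low counts. Of these 11, 9 were lower and 0 higher, with a median of -2.88. A gene near 0 on plastic could pass that filter through its gel libraries alone, so the direction of such a gene was partly fixed. CCL2, which attracts monocytes, read 887, 919, 794 and 1153 CPM in gel cultures 1 to 4 and 242, 139, 106 and 213 in plastic cultures 1 to 4 (log2 -2.42, SE 0.24, adjusted p = 2.62e-06). CXCL8, the neutrophil chemokine, read 141, 124, 123 and 304 on gel and 14.7, 2.85, 5.1 and 12.9 on plastic (log2 -4.28, SE 0.54, adjusted p = 2.74e-05). No plastic library reached the lowest gel library for either gene. For CXCL8, among the 15 largest falls, this was a condition of the rule that named it. The membrane-bound CX3CL1 changed by -2.88 (SE 0.22) and CXCL2 by -4.36 (SE 0.21). In the interleukin list 11 of 18 tested were lower and 2 higher: IL6 fell from 202 ± 139 to 22.2 ± 11 CPM (log2 -3.18, SE 0.51, adjusted p = 2.70e-04, with a log2 change of -2.59 without female gel 4), IL1A from 21.3 ± 8.32 to 2.6 ± 1.05 CPM (log2 -3.03, SE 0.43, adjusted p = 9.30e-05), and the receptor genes IL6R (log2 -1.59, SE 0.17) and IL1R1 (log2 -1.04, SE 0.16) fell with them. SOCS2 (log2 1.35, SE 0.29), a feedback inhibitor of growth hormone signals, and IL34 (log2 0.92, SE 0.21), a macrophage growth factor, were the 2 that rose.

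The regulators of inflammation fell alongside. Of 24 NF-kB subunit, feedback and target genes, 19 were lower and 1 higher (median -0.88). SOD2, mitochondrial superoxide dismutase, had the smallest adjusted p of these and read 532, 685, 608 and 511 CPM on gel and 35.1, 36, 31.5 and 29.3 on plastic (log2 -4.15, SE 0.15, adjusted p = 5.99e-11). NFKBIA, the inhibitor that NF-kB itself induces, fell from 83.8 ± 12 to 13.8 ± 1.9 CPM (log2 -2.6, SE 0.16, adjusted p = 2.09e-08), and REL, a subunit, was the one that rose (log2 1.32, SE 0.21). Acute-phase and complement genes had 15 of 24 lower and 1 higher, the pentraxin PTX3 (log2 1.6, SE 0.37). CFD, the complement activator adipsin, fell from 19.8 ± 2.22 to 1.11 ± 0.556 CPM (log2 -4.16, SE 0.29). Antigen presentation by MHC class I had 12 of 16 lower and 0 higher, with PSME1, a subunit of the proteasome activator, at -1.1 (SE 0.13), the immunoproteasome subunit PSMB8 at -1.04 (SE 0.15) and PSMB10 at -1.81 (SE 0.23). Interferon-stimulated genes were nearer the background: 9 of 23 were lower and 0 higher, but 4 without female gel 2 or female plastic 3. IFIT1, which blocks translation of viral RNA, fell from 1.33 ± 0.517 to 0.222 ± 0.0968 CPM (log2 -2.56, SE 0.44, adjusted p = 4.62e-04) and IFI44L from 18.2 ± 2.27 to 9.0 ± 1.51 CPM (log2 -1.02, SE 0.15, adjusted p = 1.58e-04). Female leukocyte marker sums were 12.4 to 15.3 CPM on gel and 9.85 to 39.5 on plastic, with PTPRC at 0 in all 8. The leukocyte list had 4 tested genes, with 1 higher (0 without female gel 3 or female plastic 1) and 1 lower. The lower was the monocyte coreceptor CD14 (log2 -1.4, SE 0.20). The higher was LAPTM5, with 4.97, 2.48, 1.12 and 3.62 CPM on gel and 33.7, 6.26, 4.62 and 9.28 on plastic, with overlap.

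Antioxidant and detoxifying enzymes fell together, with 21 of 26 tested lower and 0 higher, or 1 higher with the pairs as a block (median -0.83). The quinone reductase NQO1 fell from 79.1 ± 9.85 to 29.2 ± 4.51 CPM (log2 -1.44, SE 0.13, adjusted p = 1.36e-06), and GPX3 read 135, 48.9, 80.5 and 184 CPM on gel and 4.0, 2.39, 2.6 and 2.11 on plastic. Every plastic library of both genes lay below every gel library. The list of resting fibroblast and adipogenic genes had 8 of 19 lower and 0 higher (2 higher with the pairs as a block, 1 without female plastic 3). PDGFRA, the receptor that marks resting fibroblasts, read 1096, 1651, 1524 and 1682 CPM on gel and 261, 312, 268 and 299 on plastic (log2 -2.38, SE 0.16, adjusted p = 4.58e-08), and the transcription factor CEBPD fell from 448 ± 38 to 76.9 ± 13.1 CPM (log2 -2.54, SE 0.14, adjusted p = 6.34e-09). The fibroblast marker list as a whole had 1 of 14 higher (2 with the pairs as a block or without female gel 2) and 7 lower. KLF4 was not called (log2 -0.2, adjusted p = 0.268).

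**Figure D3:**
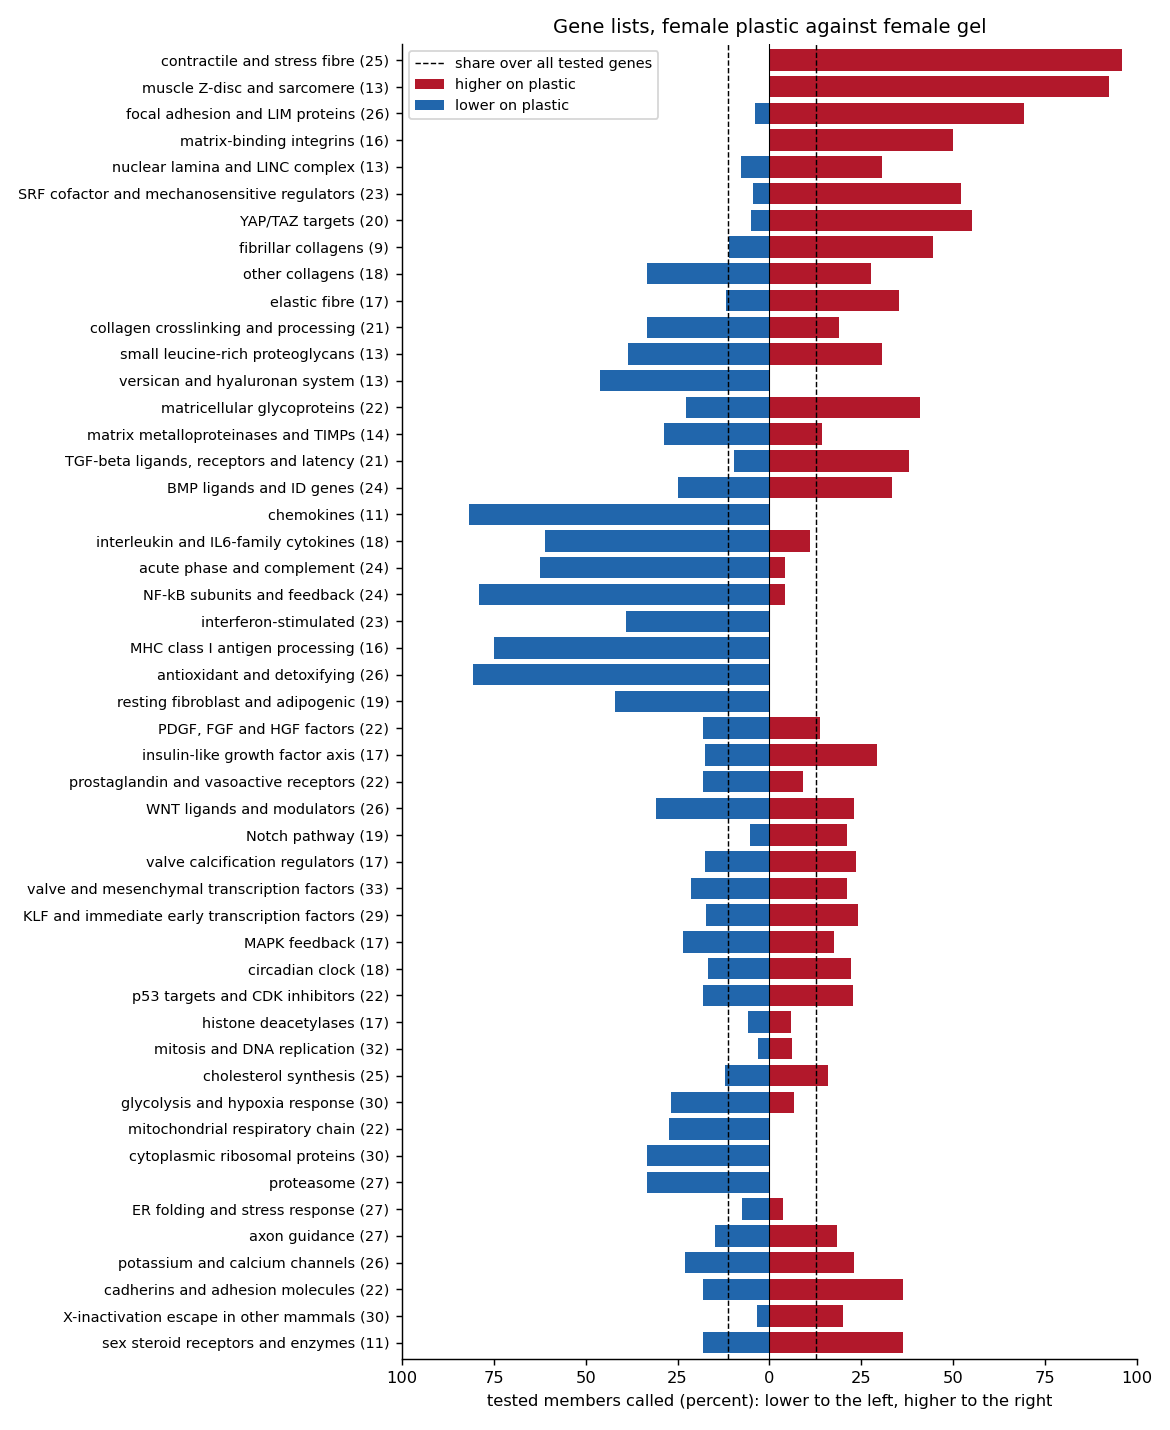
Share of tested members of each gene list called higher (to the right) or lower (to the left) on plastic in female cells, in percent. Dashed lines mark the shares over all tested genes, 12.7% higher and 11.3% lower, and the number of tested members stands beside each name. The contractile list lies farthest to the right at 96.0% and the NF-kB, chemokine and antioxidant lists farthest to the left.

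Both growth factor lists held genes in either direction. In the insulin-like growth factor list 5 of 17 were higher and 3 lower: IGF1 and the IGFBP protease PAPPA (log2 -1.6, SE 0.21) fell, while the receptor IGF1R (log2 1.0, SE 0.091) and the binding proteins IGFBP7 (log2 1.09, SE 0.12) and IGFBP5 (log2 3.19, SE 0.46) rose. Among 22 PDGF, FGF, HGF and EGF family genes 3 were higher and 4 lower (9 lower with the pairs as a block, 2 without female gel 1 and 7 without female plastic 4). HGF, a ligand that restrains myofibroblasts in other tissues, read 131, 48.9, 53.9 and 225 CPM on gel and 29.2, 25.7, 22.7 and 66.9 on plastic, with overlap (log2 -1.67, SE 0.53, adjusted p = 0.0321), and its call was lost without female gel 1 or 4 or female plastic 1, 2 or 3 (adjusted p up to 0.142). Its receptor MET rose from 21.4 ± 2.22 to 46.2 ± 6.4 CPM (log2 1.11, SE 0.16, adjusted p = 8.37e-05). Prostaglandin and vasoactive receptor genes had 2 of 22 higher and 4 lower, or 5 and 8 with the pairs as a block. The share called in the main fit, 27.3%, was near the 23.9% over all genes. The cyclooxygenase PTGS1 fell from 455 ± 48.8 to 86.6 ± 13.4 CPM (log2 -2.4, SE 0.20, adjusted p = 6.41e-07) and the synthase PTGES from 64.6 ± 8.36 to 19.4 ± 5.61 CPM (log2 -1.74, SE 0.20), while PTGS2 was not called (log2 0.19, adjusted p = 0.691). The angiotensin receptor AGTR1 (log2 2.48, SE 0.33) and the natriuretic peptide clearance receptor NPR3 (log2 2.14, SE 0.31) rose.

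Developmental pathways showed members in both directions. Of 26 WNT genes 6 were higher and 8 lower, with the receptor FZD1 down from 204 ± 65 to 57.3 ± 9.73 CPM (log2 -1.83, SE 0.21, adjusted p = 1.20e-05), the feedback target AXIN2 at -1.09 (SE 0.13) and the ligand WNT9A at 1.56 (SE 0.25). Notch genes had 4 of 19 higher (2 without female gel 1, 2 or 3 or female plastic 2 or 3) and 1 lower (2 with the pairs as a block, 0 without female gel 3 or 4 or female plastic 1, 2 or 3). The share of Notch genes called, 26.3%, was near the 23.9% over all genes. Among the higher were the ligand JAG1 (log2 1.39, SE 0.15, adjusted p = 7.45e-06) and the mural cell receptor NOTCH3 (log2 1.42, SE 0.29, adjusted p = 0.00186). Axon guidance genes had 5 of 27 higher and 4 lower, among them SEMA3D (log2 2.23, SE 0.33), SLIT2 (log2 1.12, SE 0.27), SEMA3A (log2 -2.82, SE 0.29) and the ephrin EFNB1 (log2 -1.39, SE 0.14). In the potassium and calcium channel list 6 of 26 were higher and 6 lower, the plasma membrane calcium pump ATP2B4 (log2 0.73, SE 0.11) and the inward rectifier KCNJ2 (log2 -1.34, SE 0.22) having the smallest adjusted p in each direction. Among calcification regulators, relevant to valve stenosis, 4 of 17 were higher and 3 lower (5 lower with the pairs as a block). MGP, the matrix inhibitor of calcification, read 157, 190.0, 177 and 69.9 CPM on gel and 276, 862, 740.0 and 510.1 on plastic (log2 2.01, SE 0.39, adjusted p = 0.00112), SOX9 fell from 81.8 ± 13.8 to 32.6 ± 7.01 CPM (log2 -1.33, SE 0.16, adjusted p = 2.14e-05) and the osteoblast factor RUNX2 was not called (log2 -0.41, SE 0.21, adjusted p = 0.178, and 0.0268 with the pairs as a block).

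Transcription factors followed no single direction. Valve and mesenchymal factors had 7 of 33 higher and 7 lower, MEF2D (log2 0.81, SE 0.10), FOXC2 (log2 0.96, SE 0.13) and FOXP1 (log2 0.77, SE 0.12) against SOX4 (log2 -0.81, SE 0.13) and SNAI1 (log2 -1.19, SE 0.23). KLF and immediate early factors had 7 of 29 higher and 5 lower, KLF7 rising from 114 ± 25.3 to 331 ± 62.9 CPM (log2 1.53, SE 0.17, adjusted p = 9.25e-06), NR4A2, an orphan nuclear receptor, falling from 128 ± 58 to 19.4 ± 9.19 CPM (log2 -2.72, SE 0.36, adjusted p = 4.87e-05), and FOS falling from 5.43 ± 2.01 to 1.99 ± 0.536 CPM (log2 -1.44, SE 0.32). KLF2, a flow-sensitive factor, was not called (log2 0.32, adjusted p = 0.425), and EGR1 was not called (log2 -0.3, adjusted p = 0.377, but 0.0317 with the pairs as a block). Feedback inhibitors of MAP kinases had 3 of 17 higher and 4 lower (2 lower without female gel 1 or 4 or female plastic 2 or 3), DUSP14 (log2 1.61, SE 0.25) and SPRY1 (log2 -1.53, SE 0.30) among them. The circadian list had 4 of 18 higher and 3 lower (2 higher without female gel 2 or 3 or female plastic 4), with the repressor BHLHE41 at -1.76 (SE 0.27) and PER2 at 0.78 (SE 0.21). Of 22 p53 targets and CDK inhibitors 5 were higher and 4 lower (7 lower with the pairs as a block), the stress sensor GADD45B at 1.64 (SE 0.26) and SESN1 at -1.49 (SE 0.17). Among 17 histone deacetylases HDAC9 rose and 1 fell (0 lower without female gel 3), 11.8% called against 23.9% over all genes: HDAC9 read 23.4, 22, 14.3 and 6.38 CPM on gel and 67, 70.7, 70.4 and 116 on plastic (log2 2.3, SE 0.39, adjusted p = 3.77e-04).

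Ribosomal, proteasome, respiratory chain and glycolysis genes that were called were mostly lower on plastic. The 30 cytoplasmic ribosomal protein genes had 0 higher and 10 lower, each by less than 2-fold, but the count was 16 with the pairs as a block and 5 or 6 without female gel 2 or 3 or female plastic 1 or 4. Their share of all counts, taken before scaling, was 2.65% ± 0.164 on gel and 1.85% ± 0.11 on plastic (mean ± SD, n = 4). The median of their fitted log2 changes was -0.286. RPS2 fell from 1375 ± 111 to 935 ± 143 CPM (log2 -0.56, SE 0.14, adjusted p = 0.00833). Proteasome subunits had 9 of 27 lower (5 without female gel 3) and 0 higher, PSMA6 falling by 0.76 (SE 0.077) on the log2 scale. Respiratory chain subunits had 6 of 22 lower and 0 higher, 2 or 3 lower without female gel 3 or 4 or female plastic 1 or 4. Their share called, 27.3%, was all in the lower direction. Over all genes 11.3% were called lower and 23.9% in either direction. Glycolysis and hypoxia genes had 8 of 30 lower and 2 higher: the mTOR inhibitor DDIT4 fell from 210.1 ± 28.9 to 75.7 ± 16.5 CPM (log2 -1.47, SE 0.16, adjusted p = 7.95e-06), the lipase inhibitor ANGPTL4 from 49.2 ± 13.2 to 12.7 ± 5.26 CPM (log2 -1.95, SE 0.26), and the pyruvate dehydrogenase kinase PDK1 rose from 86.4 ± 5.07 to 166 ± 26.4 CPM (log2 0.94, SE 0.11). Of 27 endoplasmic reticulum folding and stress genes 1 was higher and 2 were lower (2 higher with the pairs as a block or without female gel 1 or female plastic 3, and 1 lower without female gel 4, female plastic 1 or female plastic 3). In the cholesterol list 4 of 25 were higher and 3 lower, 28.0% called and so near the 23.9% over all genes. The sterol carrier STARD4 rose from 33 ± 8.44 to 132 ± 38.2 CPM (log2 2.0, SE 0.23, adjusted p = 1.37e-05) and the exporter ABCA1 fell from 27 ± 6.06 to 7.92 ± 4.87 CPM (log2 -1.77, SE 0.32). The higher count of the cholesterol list moved to 9 without female gel 4 and to 2 without female gel 1, 2 or 3 or female plastic 3 or 4, and its lower count to 1 without female gel 4.

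Few proliferation genes were called. Of 32 mitosis and DNA replication genes 2 were higher and 1 lower, 9.38% called against 23.9% over all genes, and none of the 32 separated the surfaces without overlap. The proliferation marker MKI67 read 61.6, 28.2, 48.5 and 51 CPM on gel and 145, 50.2, 50.7 and 77.1 on plastic (log2 0.77, SE 0.29, adjusted p = 0.0659, and 0.0116 with the pairs as a block). Its adjusted p was 0.0322 without female plastic 2 and 0.033 without female plastic 3. With the pairs as a block 8 were higher and 3 lower, and leaving out single libraries gave 0 to 6 higher (0 without female gel 2 or 3 or female plastic 1 or 4, 6 without female plastic 2) and 0 to 4 lower (4 without female plastic 1, 3 without female gel 2 and 0 without any other).

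The cells are XX, and the study's title concerns genes that escape X inactivation, so X-linked genes were taken separately. Of 517 tested X-linked genes 72 were higher and 47 lower, 23.0% called against 24.1% of autosomal genes, with a median log2 change of 0.01. In the list of genes that escape X inactivation in other mammals, 6 of 30 were higher and 1 lower (2 lower with the pairs as a block), 23.3% called. The steroid sulfatase STS rose from 6.07 ± 1.03 to 11.4 ± 2.69 CPM (log2 0.91, SE 0.17, adjusted p = 8.56e-04), the kinase CDK16 from 93.2 ± 2.44 to 124 ± 0.887 CPM (log2 0.41, SE 0.072, adjusted p = 5.85e-04) and ANOS1, which encodes the matrix protein anosmin, from 0.541 ± 0.346 to 5.45 ± 2.98 CPM (log2 3.31, SE 0.60). The kinase BMX was also called but at low counts, with 0.216, 0.472, 0.136 and 0.109 CPM on gel and 3.42, 1.08, 0.616 and 0.127 on plastic (adjusted p = 0.028), and the call was lost without female gel 1, 3 or 4 or female plastic 1 (adjusted p up to 0.183). Its log2 change was 2.48, and 1.38 without female plastic 1. GPM6B, a membrane protein of neural cells, fell from 51.8 ± 9.29 to 28 ± 6.04 CPM (log2 -0.89, SE 0.20, adjusted p = 0.00389). Not called were the histone demethylases KDM6A and KDM5C, the helicase DDX3X, the initiation factors EIF2S3 and EIF1AX and the zinc finger factor ZFX, with log2 changes from -0.13 to 0.17 and adjusted p from 0.36 to 0.925. KDM6A, for one, read 47.1, 40.9, 44.3 and 45.3 CPM on gel and 43.7, 44.7, 46.4 and 47.3 on plastic. Among 11 tested sex steroid genes 4 were higher (2 without female gel 2) and 2 lower (1 without female gel 4). AKR1C1, a hydroxysteroid dehydrogenase with close paralogs, was at -4.1 (SE 0.60). The estrogen receptor ESR1 had at most 1 count in any female library.

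The female cultures differed among themselves on both surfaces. In a principal component analysis of the 8 libraries over the 500 most variable genes, the first component held 62.1% of the variance and parted the surfaces. The second held 20.3% and set cultures 1 and 4 apart from cultures 2 and 3 on gel and on plastic alike. The 4 same-number differences had 1 sign for 7127 of all tested genes (49.1%) and for 3407 of the 3476 called genes, but the calls came from these same libraries, which largely fixes the second count. The median difference of the called genes was smallest in culture 1, with a median of 0.619 (log2, in the called direction), followed by 0.712 in culture 2, 0.737 in culture 3 and 0.843 in culture 4.

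Some genes responded unevenly across the cultures. ACTC1, cardiac actin, changed by 2.75, 4.03, 4.05 and 5.32 in cultures 1 to 4, and HDAC9 by 1.52, 1.68, 2.29 and 4.17. MAP3K7CL changed by 0.7, 1.25, 2.11 and 3.51, and its call was lost without female gel 1 or 4 or female plastic 2 or 3 (adjusted p up to 0.112). The fitted change of ACTC1, 4.08, was 4.86 without female gel 3 and 3.35 without female plastic 3. In each of these 3 genes culture 1 changed least and culture 4 most. The Notch target HES4 had differences of 1.93, 2.26, 2.79 and -0.28, with culture 4 alone not rising, and its call was lost without female gel 1, 2 or 3 or female plastic 1, 2 or 3 (adjusted p up to 0.177). Among falling genes the carbonic anhydrase CA12 had differences of -1.2, -2.52, -4.29 and -4.99, the cerebellin CBLN4 -1.97, -4.52, -3.98 and -4.61 and the microfibril-associated THSD4 -2.74, 0.01, -0.81 and -0.77. The fitted change of CA12, -3.2, was -2.32 without female gel 4 and -3.96 without female plastic 1. CBLN4 lost its call without female gel 1 or 4 or female plastic 2, 3 or 4 (adjusted p up to 0.0741), and its fitted change went from -3.08 to -4.89 without female plastic 1. THSD4 fell most in culture 1. Its call was lost without female gel 1 (adjusted p up to 0.0539) and in the paired fit of the 8 female libraries alone (adjusted p = 0.0613). These genes were named for the width of their range among called genes, so the width is a description.

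**Figure D4:**
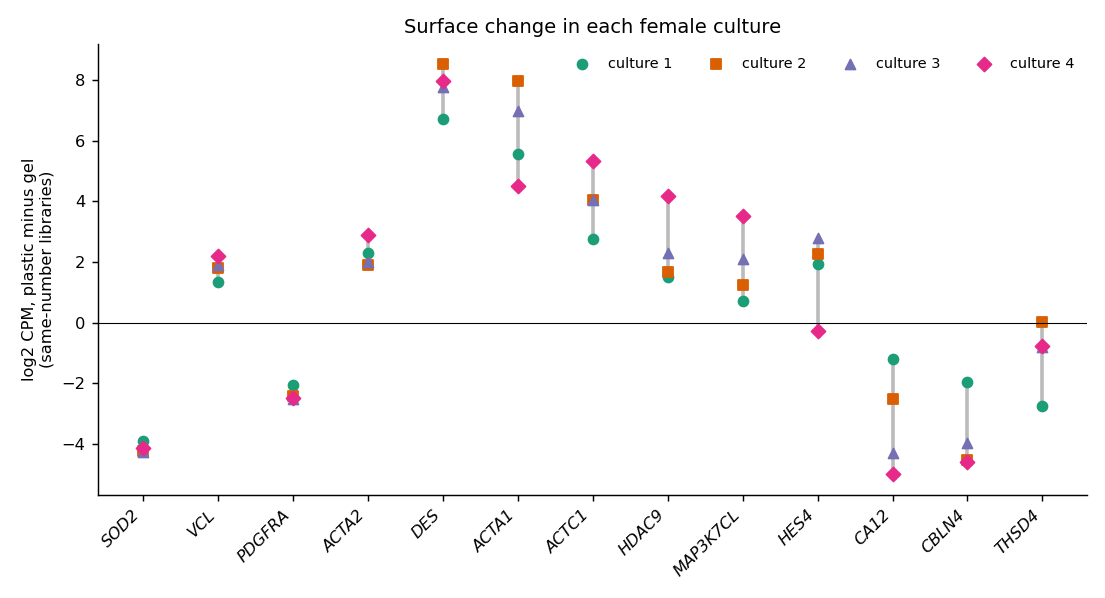
Same-number differences, plastic minus gel in log2 CPM, for the 4 female cultures in genes with wide and narrow ranges. Each point is 1 culture. SOD2 and VCL have narrow ranges, while ACTC1 runs from 2.75 to 5.32 and HES4 from -0.28 to 2.79.

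Few endothelial markers were called, and their levels differed between cultures. Of 21 tested 4 were higher on plastic and 0 lower (19% called against 23.9% over all genes), or 8 and 0 with the pairs as a block, and 1 of the 21 separated the surfaces without overlap. Their median log2 change was 0.84, and 0.12 without female plastic 1. CDH5, VE-cadherin, read 20.3, 9.45, 6.76 and 47.1 CPM in gel cultures 1 to 4 and 174, 32.1, 24.1 and 88.8 in plastic cultures 1 to 4 and was not called (log2 1.93, SE 0.78, adjusted p = 0.0853, but 4.34e-04 with the pairs as a block and 0.0334 without female gel 4). Without female plastic 1 the log2 change of CDH5 was 1.22. Plastic culture 1 was the highest and plastic culture 4 next, the same cultures that stood apart on the second component. PECAM1 read 81.3, 55.6, 51.2 and 89.2 CPM on gel and 124, 33.2, 21.5 and 69.8 on plastic (log2 -0.16, SE 0.44, adjusted p = 0.833). ERG, an endothelial transcription factor, rose from 109.8 ± 4.25 to 182 ± 49.2 CPM (log2 0.73, SE 0.16, adjusted p = 0.00298). The summed endothelial level was highest in plastic culture 1 (968 CPM) and plastic culture 4 (721 CPM). The leukocyte sum was also highest in plastic culture 1 (39.5 CPM, of which LAPTM5 alone was 33.7). The part of endothelial and leukocyte markers in the surface changes was not tested. The contractile count was 24 of 25 without female plastic 1 and 24 without female plastic 4, and the chemokine count 9 of 11 lower in both cases. Every remaining library still held endothelial markers, so these counts do not address that part.

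The last comparison asked where the surface change of female cells differed from that of male cells, tested as the difference of both changes in 1 fit of all 16 libraries. By edgeR 0 of 14530 genes passed (smallest adjusted p = 0.767), with 633 genes at an unadjusted p under 0.05 (4.36%). DESeq2 and limma-voom also called 0, with 772 and 502 genes at an unadjusted p under 0.05, and the fit with pairs as a block called 0 with 906. On simulated counts of the same genes this design recovered 4.48% of 1.5-fold, 44.8% of 2-fold and 80.3% of 4-fold differences between the sexes. Most 1.5-fold differences would therefore be missed, and moderate ones could be. The contrast in male cells called 3748 genes (25.8%). Of the 3476 female calls, 2398 were called in the same direction in male cells (69.0% of the female and 64.0% of the male calls) and 0 in the opposite direction.

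**Figure D5:**
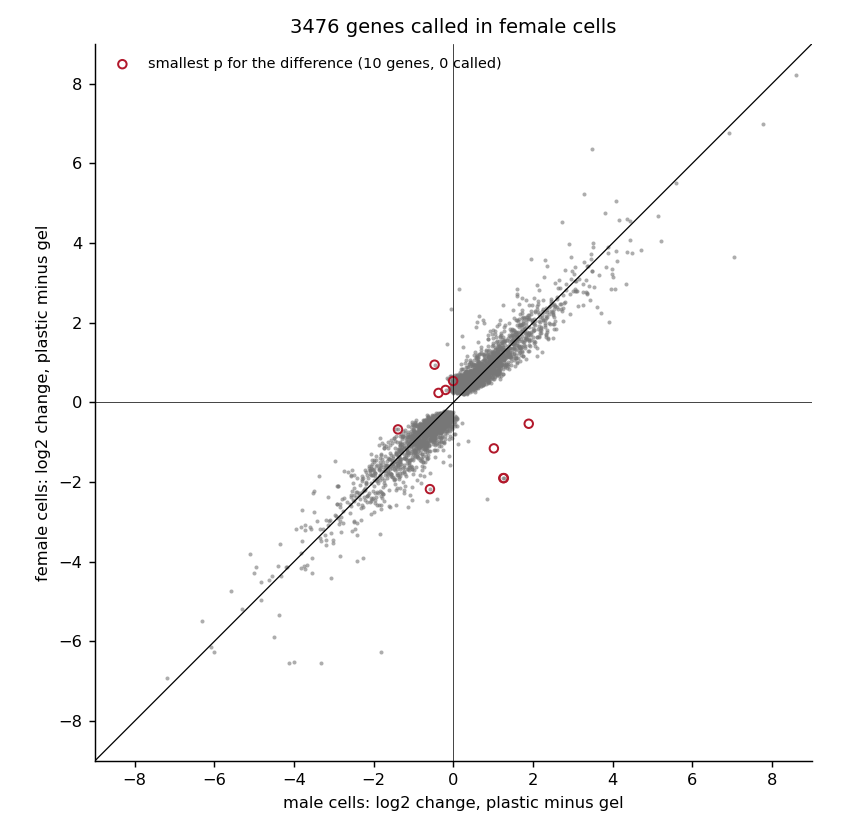
Log2 change, plastic minus gel, in female cells (vertical) against male cells (horizontal) for the 3476 genes called in female cells. The diagonal marks equal changes, and 3425 of the 3476 points share their sign. The 10 circled genes are those with the smallest unadjusted p for the difference, 5 per direction, none of which passed adjustment.

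The genes with the smallest p for that difference are given by name without a call. SH3BP1, a Rac GTPase activating protein, had a log2 change of -2.18 in female and -0.59 in male cells (difference -1.59, unadjusted p = 0.00225, edgeR, adjusted p = 0.767). PTBP2, a splicing regulator, had changes of 0.54 and -0.01 (difference 0.54, adjusted p = 0.767), and CADPS2, a vesicle priming protein, of -0.68 and -1.39 (adjusted p = 0.767). Among the leading genes of the surface change the female minus male difference was -0.4 for DES, -0.14 for ACTA2, 0.27 for AMCF-II, 0.06 for SOD2 and 0.06 for PDGFRA, each with an adjusted p of at least 0.875.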

How the data were processed

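Messenger RNA was sequenced from female and male VICs on gel or plastic, n = 4 libraries per group, taken from the sample labels. The authors deposited raw counts per gene. Per the submitters' processing notes, the tools were FastQC 0.11.5, Trimmomatic 0.36, HISAT2 2.1.0, SAMtools 1.3.1 and featureCounts, with build Sscrofa11.1. The strand setting is not given in the sources used here, so reads of overlapping genes, and those shared by paralogs, cannot be told apart. The table has 29576 entries. Those named by a number only (24, with 0.169% of counts) were dropped, and 29552 were found by symbol in RefSeq for Sscrofa11.1, the source of the coordinates.

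Genes passing filterByExpr (14530) were fitted with edgeR 4.0.16 (R 4.3.3) as 4 group means over all 16 libraries, with TMM scaling, 12 residual degrees of freedom and Benjamini-Hochberg adjustment at 0.05. The spread is between libraries and may be partly technical. On simulated counts the female contrast recovered 29.9% of 1.5-fold, 76.1% of 2-fold and 89.4% of 4-fold changes, with 5.8% false calls. The simulation changed only 67, 67 and 66 genes at these folds, far fewer than the 3476 called in the data. Recovery in the data may therefore differ. Female depth was 22902502 to 27436151 counts per library, and no pair of libraries in a group was a copy. Libraries 2 and 3 were the closest pair on both surfaces. Their chi-square per degree of freedom was 13.9 on gel, against 36.3 to 47.1 for other gel pairs. On plastic it was 8.17, against 34.8 to 51.7 for other plastic pairs. Its cause was not tested. Same-numbered female libraries deviated together (correlation across genes 0.36, 0.453, 0.405 and 0.287 for numbers 1 to 4), so the numbers were taken to pair the samples, a reading that comes from the data and not from the labels. Each library correlated most with its own number, but some unlike numbers came near: 0.254 for gel 3 with plastic 2, 0.249 for gel 2 with plastic 3 and 0.197 for gel 4 with plastic 1. Gel 1 with plastic 4 was at 0.0651, and the other unlike numbers were negative. Alternatives were RLE scaling, other filters, DESeq2 1.42.0, limma-voom (limma 3.58.1), the pairs as a block, the 8 female libraries alone, a test against 1.2-fold and leaving out each female library.

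Named genes are the 15 largest rises and 15 largest falls with at least 5 CPM in the higher group, no LOC symbol and no overlap, up to 3 called members per list and direction by adjusted p, a fixed list, the 5 smallest p per direction for the sex difference, the 5 widest ranges over cultures per direction and the 5 most abundant genes per surface, of which those the comparisons turn on are described. A few genes that the rule names are not reported here. The marker genes at or near 0 and EIF1AY are named as checks, and the members and lists were chosen with earlier results of these data known. Promoter sequences were not analysed here.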

Additional observations from a re-analysis of the deposited data

Results flagged for a closer look

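A value is given here when it stood farther from the other 3 libraries of its surface than Dixon's 95% limit for 4 values. This was so for 33 of 434 groups of 4 values (7.6%), named genes and summed measures together, and chance alone gives about 1 in 20. The values below are followed by the range of the other 3 libraries, and their causes were not tested.

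Library female plastic 4 was the highest for FBLN1 (402 CPM against 280.3 to 300.5), HDAC9 (116 CPM against 67.0 to 70.7) and HGF (66.9 CPM against 22.7 to 29.2). It was also the highest for LUM (799 CPM against 301 to 355), MMP17 (17.8 CPM against 9.15 to 10.6) and NR4A2 (33.1 CPM against 13.5 to 16.6). Further, it was the highest for TTN (194 CPM against 104 to 108) and the summed cardiomyocyte and skeletal muscle markers (197 CPM against 109 to 112). Library female plastic 4 was the lowest for CSPG4 (299 CPM against 433 to 454) and RPS2 (722 CPM against 994 to 1014). Library female plastic 1 was the highest for CBLN4 (5.60 CPM against 0.140 to 1.01), GDF7 (13.9 CPM against 3.21 to 4.07) and PTGES (27.7 CPM against 15.9 to 17.8). It was also the highest for the summed leukocyte markers (39.5 CPM against 9.85 to 14.1) and its TMM scaling factor (0.984 against 0.901 to 0.914). Library female plastic 1 was the lowest for IGF1 (8.17 CPM against 27.8 to 29.2), SEMA3D (88.6 CPM against 167 to 174) and VCAN (259 CPM against 477 to 501). Library female gel 4 was the highest for CA12 (29.4 CPM against 4.99 to 8.15), COL18A1 (740.0 CPM against 681 to 681) and CXCL8 (304 CPM against 123 to 141). It was also the highest for NR4A2 (214 CPM against 90.0 to 107). Library female gel 4 was the lowest for KCNJ8 (1.05 CPM against 1.62 to 1.65), MATN2 (39.6 CPM against 64.6 to 69.6) and PER2 (7.36 CPM against 12.3 to 12.9). Library female gel 2 was the highest for COL5A1 (3199.9 CPM against 2306 to 2356), GPM6B (65.6 CPM against 45.4 to 48.1) and IGFBP5 (7.28 CPM against 5.26 to 5.47). Library female gel 3 was the highest for DUSP14 (24.2 CPM against 16.2 to 17.5). Library female gel 3 was the lowest for FOXC2 (23.5 CPM against 27.1 to 27.8). Library female plastic 3 was the highest for BMP4 (129.8 CPM against 92.2 to 97.3) and STS (15.5 CPM against 10.1 to 10.1). Library female plastic 2 was the highest for ABCC9 (3.27 CPM against 1.14 to 1.42).

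The 3 libraries with the most such values were female plastic 4 with 10, female plastic 1 with 8 and female gel 4 with 7, all of cultures 1 and 4, the cultures that stood apart on the second principal component. Every called gene listed here kept its call when any single female library was left out, except HGF and CBLN4, whose values are in the report.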

How the results depend on the processing

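The counts of called, higher and lower genes stayed within 1.5 times of 3476, 1839 and 1637 under RLE scaling, other filters, DESeq2, limma-voom, both fits of the 8 female libraries alone and the pairing of same-numbered libraries. With the pairs as a replicate block 4011 genes were called, 2104 higher and 1907 lower, and beyond CDH5, EGR1, MKI67, MMP1 and RUNX2 and the lists it is named with in the report, it changed no other call of a gene described here. Leaving out 1 female library gave 2780 to 3260 called, 1470 to 1814 higher and 1309 to 1446 lower genes, and 16.8% to 20.3% of X-linked genes called. The test against a 1.2-fold change, stricter by construction, called 2024 genes, 1156 higher and 868 lower, and 12.6% of X-linked genes. The difference of the female and male changes had 0 calls in every fit that tested it. Of 203 named genes 184 were called, and 0 of these changed sign in any fit. Signs turned only in genes that were not called. DDX3X was at 3.05e-05 with RLE scaling and 3.74e-05 with DESeq2. Leaving out 1 female library put DDX3X between -0.11 and 0.059, KDM5C between -0.036 and 0.10, KDM6A between -0.0017 and 0.07, PECAM1 between -0.73 and 0.13 and TGFB1 between -0.20 and 0.35. The cause of these moves was not tested. Calls of ACTC1, BMX, MAP3K7CL and PI15 were lost with limma-voom (adjusted p from 0.0528 to 0.152), those of BMX, HES4 and MAP3K7CL with the 8 female libraries alone (0.0621, 0.0739 and 0.0525) and that of THSD4 in its paired form (0.0613), which called COL1A1 (0.0263). The test against 1.2-fold lost CDK16, COL16A1, COL3A1, HES4, HGF, MAP3K7CL, MMP14 and RPS2 (adjusted p from 0.0521 to 0.0901), and COL1A2 and MKI67 were called by DESeq2 (adjusted p = 0.0388 and 0.0262). Of 108 counts of higher or lower genes by list, 3 moved by over 1.5 times with RLE scaling, 6 with DESeq2, 1 with no filter, 11 with the 8 female libraries alone, 24 in its paired form, 21 with the block and 30 against 1.2-fold. Promoter motifs were not run, since no promoter sequence was used here. Genes of few counts, such as ALKAL1 and BMX, have wide errors at this depth.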
